A study of Mus musculus with 4 samples.

Results

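The cells described here are the Ly6c+ monocytes of the mouse spleen, defined as the barcodes that the authors' deposited annotation names Ly6c+ Mono. There were 313 of them among 24143 annotated cells: 53 in the young wild type (WT) library, 76 in the aged WT library, 78 in the library of aged miR-146a knockout mice (the single knockout) and 106 in that of aged double knockout mice. Splenocytes of C57BL/6 mice were profiled as droplet libraries of single-cell RNA, 1 for each group. In WT mice the miR-155 gene was floxed (miR155 fl/fl) but not deleted, miR-146a knockout mice lacked miR-146a in the whole body, and double knockout mice lacked miR-146a in the whole body and miR-155 in T cells only. The aged mice were 15 months old; the sources used here do not give the age of the young mice. Per the study's design, cells of 3 to 6 mice were pooled per aged group, and live CD45+ cells were sorted. No pool size is recorded here for the young group. The sort used a low forward and side scatter gate meant for lymphocytes, so that large or granular myeloid cells were selected against. The sources used here do not name the Cre line that removes miR-155. Both 3' and 5' chemistry appear in the labels.

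Ly6c+ monocytes, also called classical or inflammatory monocytes, leave the bone marrow by means of the chemokine receptor Ccr2 and reach blood, spleen and inflamed tissue, where they can become macrophages or monocyte-derived dendritic cells. Part of them convert into Ly6c- monocytes, which patrol the vessel wall. The spleen holds a reservoir of them in the red pulp. miR-146a is induced by NF-kB and dampens the same pathway by repressing the adaptors Traf6 and Irak1, and miR-155 is induced on activation and favours inflammatory responses. Both microRNAs pair with their targets through the seed, bases 2 to 8, which is shown in capitals because these are the sequences that the 2 genetic lesions remove. The sequences are from RefSeq on GRCm38.p6, at chr11:43374435-43374456 (minus strand) and chr16:84714143-84714165 (plus strand), and the 2 seeds differ.
miR-146a-5p: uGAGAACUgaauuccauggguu
miR-155-5p: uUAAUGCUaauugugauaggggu

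No library has a replicate, so no test between groups was run and no p-value is given. All intervals are at 95% and cover counting error only, not the spread between mice, pools or preparations. Those of UMI sums and of their ratios also leave out the spread between the cells of a library. The libraries held 17561683 to 22399381 UMIs (unique molecular identifiers, 1 per captured RNA molecule). The Ly6c+ monocytes gave 239013, 339690, 499859 and 599384 UMIs in the order young WT, aged WT, single knockout and double knockout, an order kept for every run of 4 values that follows. The median cell held 4502, 4442, 6776.5 and 5637 UMIs, against 2268, 2041.5, 2626 and 2245.5 in all other annotated cells of the same library. Gene levels are UMIs per 1000000 UMIs of these monocytes (CPM), and 1 UMI equalled 4.18, 2.94, 2.00 and 1.67 CPM. No barcode sequence was shared between the Ly6c+ monocytes of any pair of libraries, and 48 to 91 barcodes were shared over all cells.

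The name was checked against marker genes. Scored on marker lists of 8 cell types, 45 of 53, 57 of 76, 64 of 78 and 90 of 106 cells scored highest for Ly6c+ monocytes, and most of the others scored highest for Ly6c- monocytes (7, 14, 13 and 16 cells). Ccr2, the receptor that defines the class, was at 1418, 1183, 1400 and 1248 CPM and had a UMI in 51, 66, 70 and 96 cells. Ly6c2, which encodes the surface protein in the name, was at 1674, 1113, 1758 and 1995 CPM. Both were far lower in Ly6c- monocytes, where Ly6c2 was at 169, 9.58, 5.09 and 19.4 CPM. The near-identical Ly6c1 had 2 UMIs in the single knockout only, and reads of the pair may not be separable. Against all other annotated cells, the smallest fold over the 4 libraries was highest for F13a1, the A chain of coagulation factor XIII, at 354-fold, and for Fn1, fibronectin, at 277-fold. F13a1 stood at 657, 498, 536 and 579 CPM and Fn1 at 510, 474, 426 and 390 CPM. Ranking by the smallest fold over the 4 libraries favours genes present in all of them, so these similar levels are no finding about the class. Other selective genes were Tgfbi, a secreted matrix protein (59.4-fold), Ptpro, a receptor phosphatase (43.6-fold), and Ccr2 (39.8-fold). Since the names may rest on these genes, they describe the class and are not tests of it. Against Ly6c- monocytes, Chil3, a chitinase-like protein of classical monocytes, was 31.6-fold or more higher in every library, while Fabp4, a fatty acid binding protein, and Fcgr4, an IgG receptor of patrolling monocytes, were 27.3-fold and 16.6-fold or more lower.

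Some cells carried RNA of other types. Cells with 2 or more UMIs of B or T cell marker genes numbered 16, 15, 7 and 10. Summed B cell markers stood at 615, 359, 102 and 162 CPM, T cell markers at 138, 70.7, 50 and 66.7 CPM, and neutrophil markers at 96.2, 165, 318 and 716 CPM. Platelet markers were at 0 in all libraries, and so was Cxcr2, the chemokine receptor of mature neutrophils. B cell RNA was thus highest in the young WT cells, and neutrophil RNA highest in the double knockout cells. Mir155hg, the host transcript of miR-155, had no UMI in Ly6c+ monocytes of any library, and 76, 102, 138 and 142 UMIs in the other annotated cells. There it was found in 57 of 6768, 86 of 5820, 118 of 4754 and 118 of 6488 cells. At such low shares, the 53 to 106 monocytes per library are too few to tell absence from a low level. A transcript of miR-146a itself was not analysed here, so the labels of the knockouts were not checked in these cells.

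Ly6c+ monocytes took a larger share of the aged than of the young WT library, and between 1.29% and 1.61% of the aged libraries. The share was 0.777% of annotated cells for young WT (interval 0.583 to 1.02), 1.29% for aged WT (1.02 to 1.61), 1.61% in the single knockout (1.28 to 2.01) and 1.61% in the double knockout (1.32 to 1.94). The aged to young ratio was 1.66 (1.17 to 2.35), the ratio of the single knockout to aged WT was 1.25 (0.915 to 1.71), and that of the double knockout to the single knockout was 0.996 (0.745 to 1.33). Only the first of these intervals lay above 1, and these calls depended on the cells counted. Among cells scoring highest as Ly6c+ monocytes the aged to young ratio was 1.47 (0.993 to 2.16). The ratio of the single knockout to aged WT was 1.42 (1.01 to 2.00) without cells with B or T cell marker UMIs, and 2.10 (1.58 to 2.77) with unnamed barcodes that held Ccr2 and F13a1 added. With those barcodes the ratio of the double to the single knockout was 0.727 (0.572 to 0.924). Ly6c- monocytes differed far more, with 27, 55, 186 and 207 cells, or 0.396%, 0.933%, 3.85% and 3.14% of annotated cells. Of all monocytes, 66.3% (54.8 to 76.4), 58.0% (49.1 to 66.6), 29.5% (24.1 to 35.4) and 33.9% (28.6 to 39.4) were therefore Ly6c+, and the intervals of the WT libraries did not overlap those of the knockouts. The scatter gate can set these shares, and barcodes above about 9000 UMIs carry no name: among them, 0, 0, 50 and 23 scored as Ly6c+ monocytes and held both Ccr2 and F13a1.

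**Figure D1:**
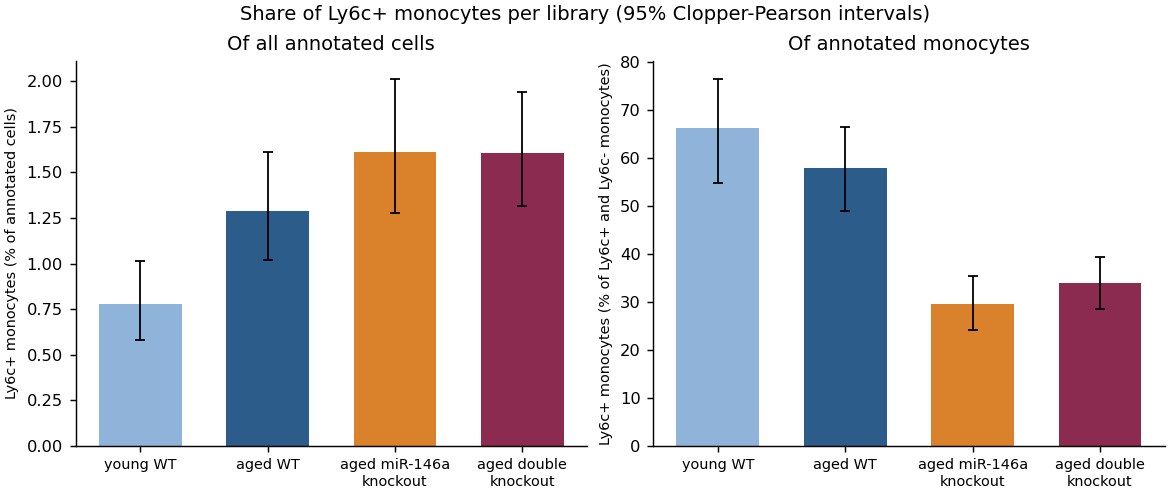
Share of Ly6c+ monocytes among annotated cells (left, percent) and among all monocytes (right, percent) in the 4 libraries, with exact binomial intervals. The share of annotated cells lies between 0.777% and 1.61%, while the share of monocytes is 66.3% and 58.0% in the WT libraries and 29.5% and 33.9% in the knockouts.

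Genes were compared where both libraries together held at least 20 UMIs. With 1 UMI added to each sum, a gene whose ratio was 1.5-fold or more above or below 1 is called higher or lower, whatever its interval. Genes named as those with the clearest difference also had an interval wholly beyond 1.5-fold; these were 0.287% of genes upward and 0.258% downward in aged against young WT, 1.43% and 1.27% in the single knockout against aged WT, and 0.235% and 0.235% in the double against the single knockout. The 3 comparisons share libraries, so that a high value in aged WT cells raises the first ratio and lowers the second.

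The genes of classical monocyte identity differed little with age and were partly higher in the single knockout. In aged against young WT cells, 9.62% of 3484 genes were higher and 10.6% were lower. Of the 13 measured identity genes, F10 was higher, 2 were lower, Ly6c2 among them, and the median log2 ratio was -0.08, against -0.01 over all genes. Ly6c2 gave an aged to young ratio of 0.665 (0.576 to 0.767).

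In the single knockout against aged WT, 12.3% of 4394 genes were higher and 13.3% lower. Of 14 identity genes, 7 were higher (Saa3, F10, Clec4e, Hp, Gda, Vcan and Ly6c2) and 1 was lower (Mgst1, a microsomal glutathione transferase), with a median log2 ratio of 0.45. F10, coagulation factor X, stood at 58.6, 100, 310 and 197 CPM. It was highest in the single knockout, 3.10-fold above aged WT (2.13 to 4.63), and its ratio of double knockout to single knockout was 0.635 (0.495 to 0.812). Hp, haptoglobin, which binds free haemoglobin, stood at 682, 854, 1783 and 1396 CPM, a ratio of 2.09 (1.83 to 2.39) in the single knockout. Hp was also higher there in Ly6c- monocytes, at 1472 against 527 CPM. Of the identity list, 4 of 6 members measured in Ly6c- monocytes were higher in the single knockout and 1 was lower (median 1.18). Of all genes in that type, 14.9% were higher and 14.8% lower. In DC/Mac cells 1 of 5 members was higher and 1 lower (median -0.15), against 13.8% and 17.2% of all genes. Clec4e, the receptor Mincle for mycobacterial glycolipids and dead cells, stood at 37.7, 41.2, 120 and 65.1 CPM. Vcan, the matrix proteoglycan versican, stood at 41.8, 53.0, 90.0 and 68.4 CPM, from only 10 to 45 UMIs, and its ratio of 1.70 had an interval from 0.964 to 3.12. In the double knockout against the single knockout, 9.09% of 5116 genes were higher and 7.66% lower. Saa3, Clec4e and F10 were lower there, no identity gene was higher, and the median was -0.17.

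**Figure D2:**
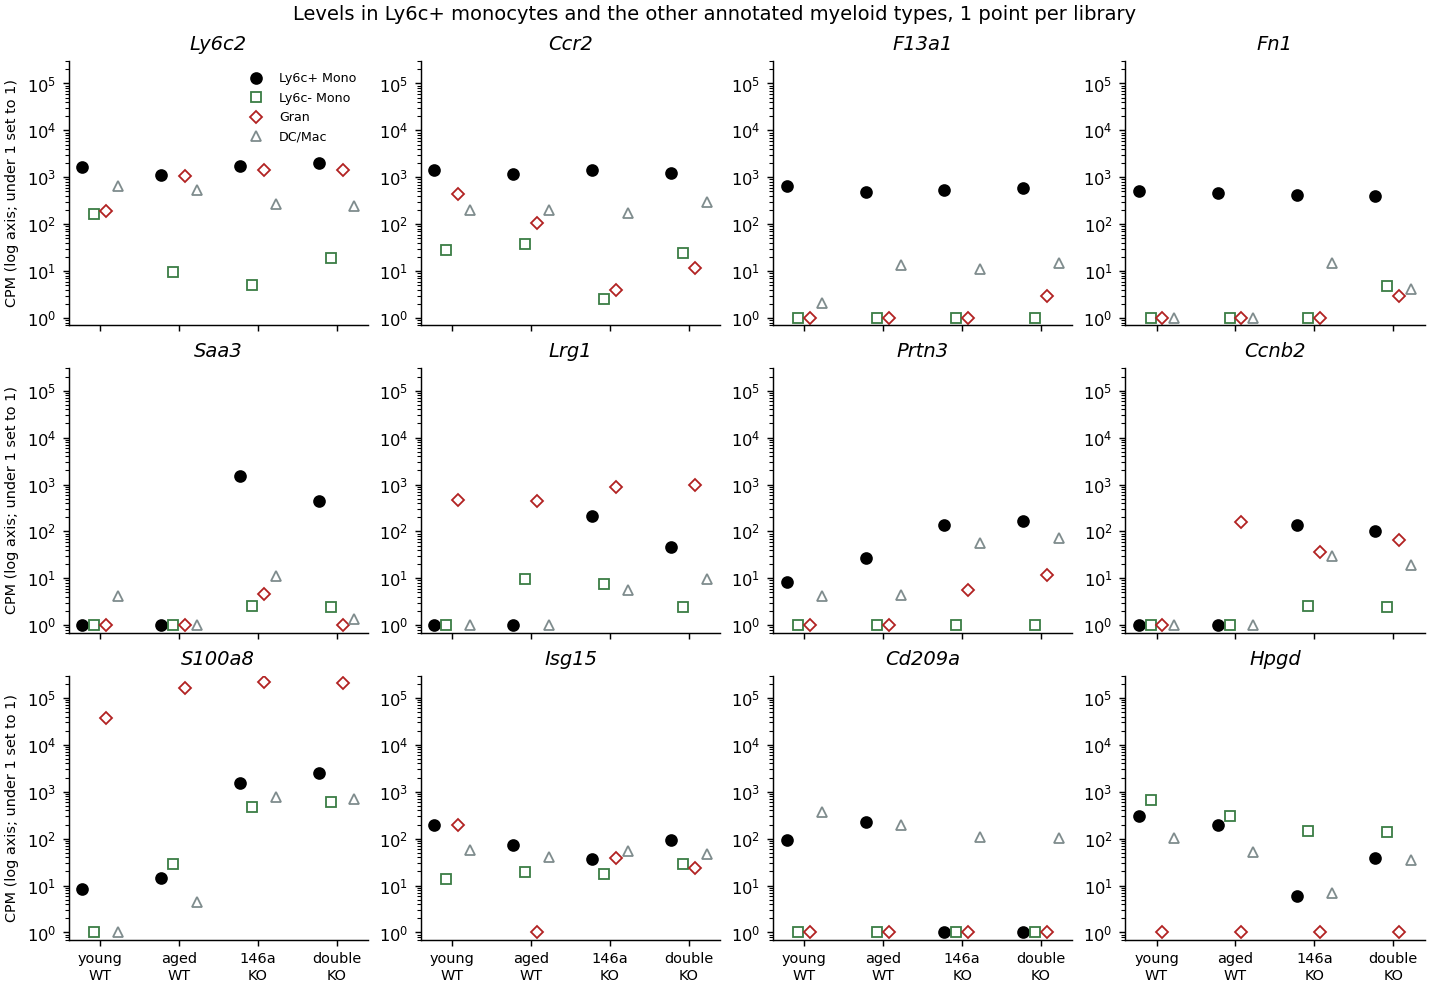
Level in CPM (log axis, levels under 1 drawn at 1) of 12 genes in Ly6c+ monocytes and in the 3 other myeloid annotations, Ly6c- monocytes, granulocytes and DC/Mac, by library. In Ly6c+ monocytes F13a1 lies between 498 and 657 CPM and Fn1 between 390 and 510 CPM. Saa3 is at 0 in both WT libraries and at 1554 and 435 CPM in the knockouts. Cd209a is at 92.0 and 227 CPM in WT and at 0 in the knockouts.

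Saa3, a serum amyloid A protein that inflamed macrophages and other cells secrete, was among the markers of the class, yet the annotated Ly6c+ monocytes of both WT libraries held none of its RNA. It had 0 UMIs in the WT libraries, 777 in the single knockout and 261 in the double knockout, or 0, 0, 1554 and 435 CPM. Set against a floor of 3 counts in the aged WT sum, the level was at least 176-fold higher in the single knockout and at least 49.3-fold higher in the double knockout. The double knockout stood at 0.280 of the single knockout (0.243 to 0.323). No other annotated type that was compared exceeded 11.1 CPM. Barcodes without a deposited name that scored as Ly6c+ monocytes, on a marker list that holds Saa3, had 3, 2, 1364 and 25 Saa3 UMIs.

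The Saa3 RNA was spread unevenly over cells. It was found in 35 of 78 cells of the single knockout (44.9%) and in 17 of 106 of the double knockout (16%). The 0 of 53 and 0 of 76 WT cells allow shares of up to 5.66% and 3.95%, with a count of 0 set at 3 cells. In naive CD4 T cells, which should lack the gene, shares were 0%, 0.208%, 1.95% and 0.166%, at median depths of 2391, 2193, 2177.5 and 1961 UMIs. After every cell was thinned to 1000 UMIs, the monocyte shares were 0%, 0%, 30.8% and 5.66%, and the T cell shares 0%, 0%, 0.974% and 0%. The order of the knockouts was therefore the same at equal depth. The richest cell held 110 UMIs in the single knockout, and 162 of all 261 UMIs in the double knockout. The 5 richest cells held 50.8% and 87.4% of the Saa3 UMIs, and 1 cell held most of the sum of the double knockout.

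**Figure D3:**
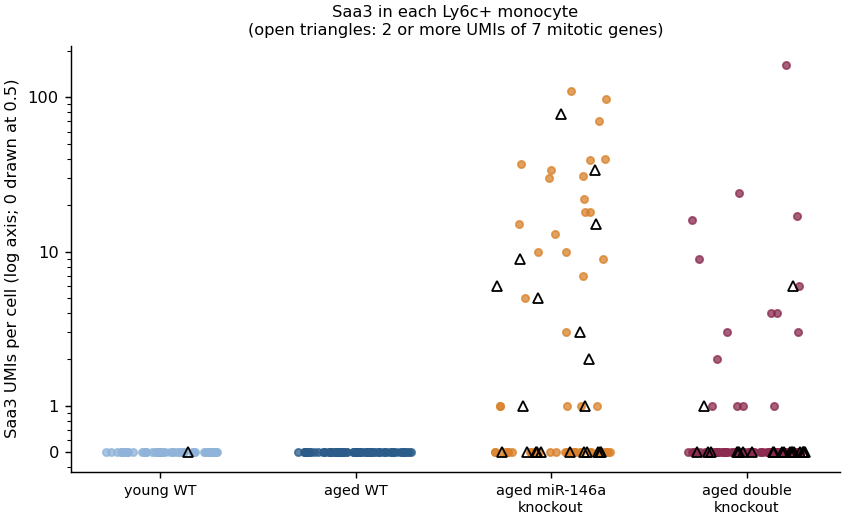
Saa3 UMIs in each Ly6c+ monocyte by library (log axis, cells at 0 drawn at 0.5), with open triangles for cells that hold 2 or more UMIs of 7 mitotic genes. No WT cell holds a UMI; 35 of 78 and 17 of 106 knockout cells do, and 1 cell of the double knockout holds 162.

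The Saa3 promoter is shown because the gene had no UMI in annotated WT Ly6c+ monocytes and the largest lower bound of all named genes in the single knockout. It covers 250 bases before to 50 bases after the start of the RefSeq gene, at chr7:46715627-46715926 on the minus strand of GRCm38.p6. The capitals mark, at bases 152 to 159, a match on the other strand to TTGCNNAA, a form of the site that C/EBP factors bind. That motif, searched on both strands, was in 10.8% of 32851 promoters of the same length and in 4 of the 12 identity genes with a promoter (33.3%). A form of the NF-kB site was also searched for on both strands, and the Saa3 promoter held no match to it. The NF-kB form was common, with a match in 50.8% of the 32851 promoters.
Saa3 promoter: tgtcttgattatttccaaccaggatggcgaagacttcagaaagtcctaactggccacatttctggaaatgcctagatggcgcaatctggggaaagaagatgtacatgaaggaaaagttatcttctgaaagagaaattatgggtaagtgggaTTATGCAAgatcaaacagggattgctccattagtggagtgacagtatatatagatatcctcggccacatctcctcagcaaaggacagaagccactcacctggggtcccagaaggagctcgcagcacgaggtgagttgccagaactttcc

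Lrg1 and Ifitm1 also had no UMI in the Ly6c+ monocytes of either WT library. Lrg1, an acute phase glycoprotein that neutrophils also store, stood at 0, 0, 218 and 46.7 CPM, from 109 and 28 UMIs in 26 and 16 knockout cells. It was at least 24.7-fold higher in the single knockout than in aged WT, and the double knockout stood at 0.214 of the single knockout (0.136 to 0.327). Granulocytes carried more of it, between 445 and 975 CPM. Ifitm1, an interferon-induced membrane protein, stood at 0, 0, 166 and 43.4 CPM, at least 18.8-fold higher in the single knockout and 0.261 of that in the double knockout (0.161 to 0.410). Saa3, Lrg1 and Ifitm1 thus shared an order, with none in WT, the highest level in the single knockout and a lower level in the double knockout. Lrg1 was found in 33.3% and 15.1% of the knockout monocytes, and in 0%, 0%, 0.325% and 0% of the naive CD4 T cells, at the depths given above. Thinned to 1000 UMIs, the monocyte shares were 0%, 0%, 14.1% and 4.72%, and the T cell shares were 0% in all libraries.

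Neutrophil transcripts need the free RNA of the library beside them. S100a8, a calcium-binding alarmin, stood at 8.37, 14.7, 1550 and 2478 CPM in Ly6c+ monocytes. In the thinned cells, however, 1.89%, 1.32%, 41.0% and 40.6% of the monocytes held a UMI of it, and so did 0.508%, 0.624%, 36.4% and 40.8% of the naive CD4 T cells. The share of monocytes with S100a8 was at the background of the library and is not read as expression. Single cells held 347 of the 775 S100a8 UMIs of the single knockout and 637 of the 1485 of the double knockout. Of 8 measured neutrophil genes, 6 were higher in the single knockout (median log2 ratio 4.51), and the list was higher in Ly6c- monocytes (3.63) and in DC/Mac cells (5.74) as well. Granulocytes numbered 37, 16, 293 and 461 in the libraries.

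Cells with mitotic transcripts were found in the knockouts and hardly in WT. Cells with 2 or more UMIs over the sum of 7 mitotic genes (Mki67, Top2a, Ccnb1, Ccnb2, Cdk1, Birc5 and Cenpa) were counted. They numbered 1 of 53 in young WT (1.89%) and 0 of 76 in aged WT (interval 0 to 4.74). In the single knockout they numbered 21 of 78 (26.9%, interval 17.5 to 38.2), and in the double knockout 23 of 106 (21.7%, 14.3 to 30.8). The intervals of the aged libraries did not overlap between WT and the knockouts, and those of the knockouts overlapped. Naive CD4 T cells gave 0.576%, 1.03%, 0.593% and 0.818%. Ly6c- monocytes gave 0 of 27, 55, 186 and 207 cells at median depths of 2300, 1659, 1979 and 1751 UMIs. Granulocytes gave 0 of 37, 2 of 16, 9.22% and 15.0%, and DC/Mac cells 0 of 106, 0 of 44, 8.23% and 8.97%. At 1000 UMIs per cell, at least 1 UMI of the 7 genes was held by 1.89%, 2.63%, 20.5% and 15.1% of Ly6c+ monocytes, against 2.68%, 5.20%, 7.47% and 2.49% of naive CD4 T cells. The WT shares lay at or below those of the T cells, and the knockout shares lay above them.

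**Figure D4:**
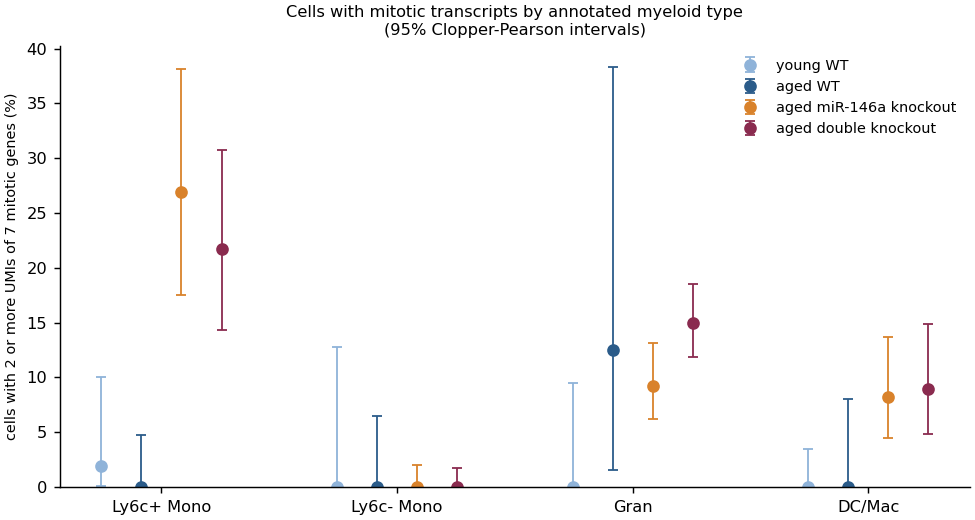
Percent of cells with 2 or more UMIs of 7 mitotic genes in the 4 myeloid annotations, by library, with exact binomial intervals. Ly6c+ monocytes reach 26.9% and 21.7% in the knockouts, and Ly6c- monocytes have no such cell in any library.

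The same cells carried monocyte markers. Of the 21 and 23 mitotic cells, 19 and 23 held Ccr2, 20 and 23 held Ly6c2, and 20 and 23 held F13a1. Over all 78 and 106 Ly6c+ monocytes of the knockouts, 70 and 96 held Ccr2, 68 and 93 held Ly6c2, and 61 and 80 held F13a1. The cells were chosen by a name that may rest on these genes, so the counts describe them and are not a test of their type. Ccnb2, cyclin B2, which drives entry into mitosis, stood at 0, 0, 136 and 102 CPM, at least 15.4-fold higher in the single knockout than in aged WT. Birc5, survivin, which acts at the spindle and blocks cell death, stood at 0, 0, 128 and 96.8 CPM, at least 14.5-fold higher. For both, the double knockout did not differ from the single knockout beyond counting error, with ratios of 0.748 (0.521 to 1.07) and 0.756 (0.520 to 1.10). Cdc20, Knstrn, Cdkn3 and Ccna2, all genes of the late cell cycle, were also among the 10 genes with the clearest higher level in the single knockout. Of the 10 measured members of the cell cycle list, 9 were higher and none was lower in the single knockout, with a median log2 ratio of 2.58, or 2.46 with genes at 0 set at the floor. Without the mitotic cells, which were picked by 7 members of this same list, the median was 0.58. In DC/Mac cells 5 of 13 members were higher and 3 lower (median 0.20), where 13.8% of all genes were higher and 17.2% lower. In Ly6c- monocytes none of 4 was higher and 1 was lower, where 14.9% of all genes were higher and 14.8% lower. In the double knockout against the single knockout, 1 of 12 was higher and 2 were lower, with a median of -0.06.

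The Ccnb2 promoter is shown because it holds both elements known from genes of the late cell cycle. It lies at chr9:70421505-70421804 on the minus strand of GRCm38.p6. The capitals mark 2 matches to TTTGAA, the cell cycle homology region, at bases 84 and 255, and 3 matches to CCAAT, at bases 164, 197 and 230, with no overlap between them. Both strands were searched. The promoter of Birc5, searched in the same way, held a match to neither. TTTGAA was in 8 of the 17 cell cycle genes with a promoter (47.1%) and in 17.9% of all promoters, and CCAAT in 15 of 17 (88.2%) and in 37.4%.
Ccnb2 promoter: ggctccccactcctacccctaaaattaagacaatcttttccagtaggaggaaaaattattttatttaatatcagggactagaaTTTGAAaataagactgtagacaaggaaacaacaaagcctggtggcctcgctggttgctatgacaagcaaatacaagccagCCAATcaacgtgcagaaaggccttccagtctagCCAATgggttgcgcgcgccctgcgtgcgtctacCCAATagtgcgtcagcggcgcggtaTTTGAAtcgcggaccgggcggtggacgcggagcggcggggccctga

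Of 8 genes of granule proteins and progenitors, Prtn3 alone had enough UMIs to be measured in the single knockout against aged WT, and it was higher. Prtn3, proteinase 3, a granule protease made by granulocyte and monocyte progenitors, stood at 8.37, 26.5, 136 and 165 CPM, with a ratio of 5.13 (2.55 to 11.7) in the single knockout against aged WT. It had a UMI in 2, 7, 27 and 38 cells. Granulocytes of the same libraries held 0, 0, 5.52 and 11.9 CPM and Ly6c- monocytes none, while DC/Mac cells held 4.17, 4.43, 55.5 and 74.1 CPM. Elane, neutrophil elastase, a protease of the same stage, had 0, 0, 14 and 22 UMIs. Mpo, myeloperoxidase, had 0, 1, 1 and 3 UMIs, Ctsg, cathepsin G, had 2, 2, 2 and 6, the stem cell marker Cd34 had none, and Kit, the stem cell factor receptor, had 1 in the double knockout. Of the mitotic cells, 11 of 21 and 17 of 23 held Prtn3, and of the cells with Elane, 7 of 8 and 6 of 7 did. Stmn1, stathmin, a regulator of microtubules that dividing cells use, stood at 0, 11.8, 146 and 160 CPM.

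Genes of the type I interferon response were partly lower in aged than in young WT cells, and partly lower in the single knockout than in aged WT. This list holds genes that interferon alpha and beta induce against viruses. Of 23 measured members in aged against young WT, none was higher and 10 were lower (Oasl2, Isg15, Ifit1, Ifi211, Rsad2, Rtp4, Irf7, Ifit3 and Xaf1 among them), with a median log2 ratio of -0.44. Isg15, a ubiquitin-like protein that is joined to other proteins, stood at 197, 73.6, 36.0 and 93.4 CPM. It was highest in young WT and lowest in the single knockout, and its ratios in the 3 comparisons were 0.374 (0.221 to 0.621), 0.489 (0.251 to 0.934) and 2.59 (1.5 to 4.69). Oasl2, a sensor-like protein of the oligoadenylate synthetase family, stood at 188, 64.8, 40.0 and 38.4 CPM, with an aged to young ratio of 0.344 (0.197 to 0.585). Irf7, the transcription factor that amplifies interferon production, stood at 322, 171, 68.0 and 122 CPM. Its aged to young ratio was 0.530 (0.370 to 0.755), and its ratio in the single knockout was 0.398 (0.253 to 0.619). Tap1, the peptide transporter for MHC class I, at 230, 94.2, 94.0 and 110 CPM, and Sp110, a nuclear body protein, at 230, 97.1, 128 and 133 CPM, were likewise lower in all aged libraries than in young WT. Ifi211 showed the same order at 314, 132, 106 and 102 CPM, but its family holds near-identical copies and its level is uncertain.

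In the single knockout against aged WT, none of 22 members was higher and 11 were lower, with a median of -0.57. Ifit3, an antiviral protein that binds foreign RNA with its relatives, stood at 151, 79.5, 8 and 20 CPM, a ratio of 0.101 (0.0256 to 0.289). Its UMIs lay in 7, 4, 2 and 5 cells, and 1 cell held 13 of the 27 UMIs in aged WT, so its level rests on few cells. In Ly6c- monocytes 5 of 10 members were lower and none higher (median -0.68), against 14.8% and 14.9% of all genes. In DC/Mac cells 3 of 18 were higher and 1 was lower (median 0.26), against 13.8% and 17.2% of all genes; the share of higher members there is near that background. In the double knockout against the single knockout, 3 of 22 members were higher (Cmpk2, Irf7 and Isg15) and 1 lower (Herc6), with a median of 0.20. Of all genes 9.09% were higher and 7.66% lower in that comparison, so both counts were near the background. Irf7 was 1.79-fold higher there (1.18 to 2.77). Cxcl10, a chemokine that interferons induce, stood at 41.8, 53.0, 14.0 and 70.1 CPM, from UMIs in 5, 4, 2 and 7 cells.

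The promoters of Isg15 (chr4:156200769-156201068, minus strand) and Ifit3 (chr19:34583279-34583578, plus strand), on GRCm38.p6, are shown because both genes were lower in 2 successive comparisons and hold the motif below. The promoter of Oasl2 was searched for it as well and held no match. The capitals mark matches to GAAA, any pair of bases and GAAA again, the core of the interferon-stimulated response element. Isg15 has 3 matches that overlap each other, starting at bases 173, 179 and 185, and Ifit3 has 2 on the other strand, starting at bases 95 and 129. Of the list's members with a promoter, 10 of 19 held the motif on either strand (52.6%), as did 3.44% of all promoters.
Isg15 promoter: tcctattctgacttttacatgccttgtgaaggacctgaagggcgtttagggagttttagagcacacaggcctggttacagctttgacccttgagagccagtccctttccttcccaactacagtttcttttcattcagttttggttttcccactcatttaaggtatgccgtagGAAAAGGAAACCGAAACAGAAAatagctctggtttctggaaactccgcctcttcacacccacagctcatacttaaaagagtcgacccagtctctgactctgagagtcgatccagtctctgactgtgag
Ifit3 promoter: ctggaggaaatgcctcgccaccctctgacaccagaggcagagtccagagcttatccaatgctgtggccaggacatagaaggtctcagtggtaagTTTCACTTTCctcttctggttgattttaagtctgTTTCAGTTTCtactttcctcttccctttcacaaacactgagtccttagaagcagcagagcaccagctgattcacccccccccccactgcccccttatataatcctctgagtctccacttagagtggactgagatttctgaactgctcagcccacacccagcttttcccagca

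**Figure D5:**
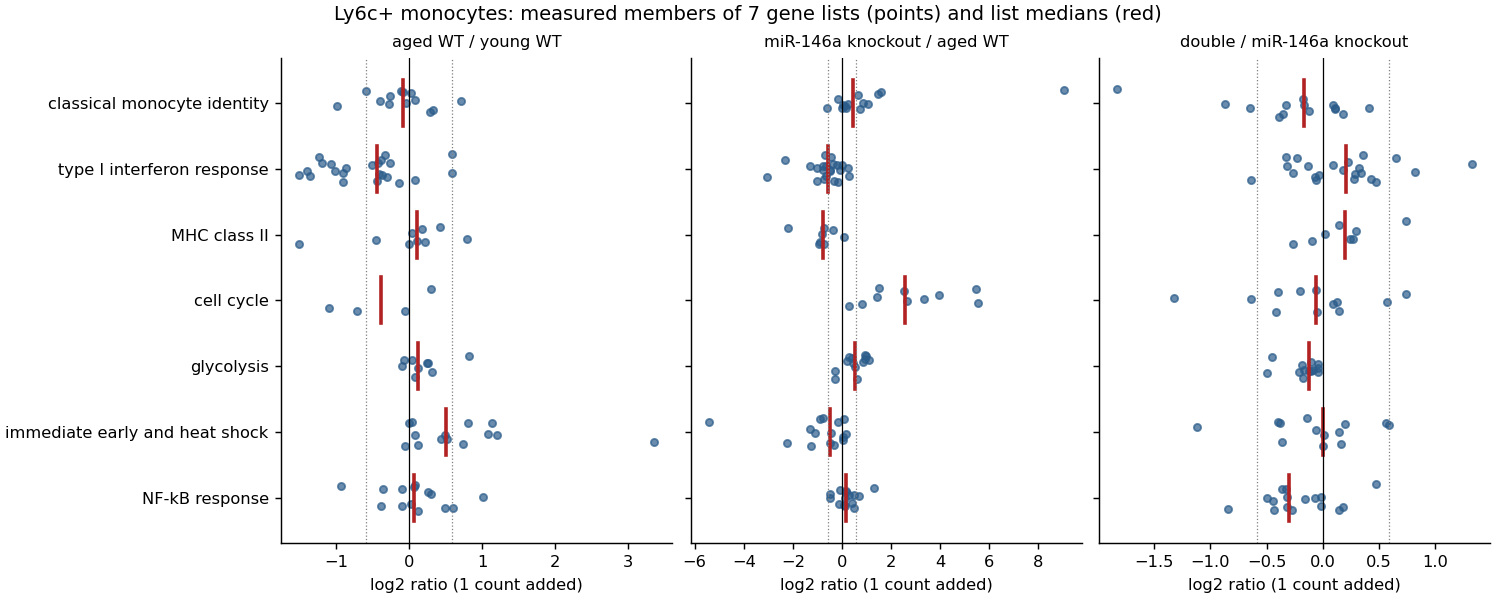
Log2 ratio of each measured member of 7 gene lists in the 3 comparisons, in Ly6c+ monocytes (points, 1 UMI added to each sum), with the list median as a red line and 1.5-fold as dotted lines. The type I interferon medians are -0.44, -0.57 and 0.20, and the cell cycle median is 2.58 in the single knockout and -0.06 in the double knockout against it.

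Immediate early and heat shock genes, which stimulation and the handling of tissue both induce, were partly higher in aged than in young WT. Of 14 measured, 6 were higher (Hspa1a, Jun, Fos, Zfp36, Dusp1 and Junb) and none was lower, with a median log2 ratio of 0.50. Hspa1a, the inducible heat shock protein 70, had 1 UMI among young WT cells, 28 in aged WT, 0 in the single knockout and 4 in the double knockout. The aged to young ratio of 19.7 had an interval from 3.26 to 806, and 1 cell held 16 of the 28 UMIs. Fos, a subunit of the AP-1 transcription factor, stood at 105, 247, 98.0 and 108 CPM, a ratio of 2.36 (1.5 to 3.86). Among Ly6c+ monocytes the aged WT library was the high one, since in the single knockout 7 of 15 members were lower and none higher (median -0.49). In that comparison 6 of 13 members were lower in Ly6c- monocytes (median -0.08), against 14.8% of all genes. In DC/Mac cells 1 of 13 was lower (median -0.02), against 17.2% of all genes. None was higher in either type. In DC/Mac cells of the same WT libraries 5 of 12 members were higher with age (median 0.51), against 13.3% of all genes, and in Ly6c- monocytes 2 of 9 (median 0.31), against 11.7%. The part of tissue handling in this difference was not tested.

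Other genes that were higher with age included Tppp3, a tubulin-binding protein, at 213, 603, 224 and 432 CPM. Its aged to young ratio was 2.83 (2.07 to 3.92), it stood at 0.371 of aged WT in the single knockout (0.292 to 0.470), and it was 1.93-fold higher in the double knockout than there (1.54 to 2.43). In Ly6c- monocytes it did not follow that order, at 197, 182, 565 and 681 CPM. Pla2g7, a secreted phospholipase that inactivates platelet-activating factor, stood at 83.7, 238, 250 and 207 CPM, and Fabp5, a fatty acid carrier, at 12.6, 73.6, 106 and 133 CPM. Both were higher in every aged library than in young WT, with aged to young ratios of 2.85 (1.73 to 4.91) and 5.86 (1.79 to 30.3), the latter from 3 UMIs in young WT. Tagln2, an actin-binding protein, stood at 443, 848, 520 and 647 CPM. Hes1, a transcription factor that Notch signalling induces, stood at 29.3, 112, 26.0 and 35 CPM, high in aged WT alone.

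Genes of antigen presentation by MHC class II were mostly lower in the single knockout than in aged WT. Cd74, the invariant chain, stood at 6334, 7121, 3851 and 4732 CPM, and H2-Aa, an MHC class II chain, at 1519, 1772, 912 and 1076 CPM. In the single knockout against aged WT none of 8 measured genes was higher and 6 were lower (H2-DMb2, H2-Aa, Cd74, H2-DMa, H2-Eb1 and H2-Ab1), with a median log2 ratio of -0.77. B cells also make these genes, and all 5 measured members of the B cell marker list were lower too, with a median of -1.64. The part of B cell RNA in the difference was not tested. The list was also lower in Ly6c- monocytes (median -1.23) and in DC/Mac cells (-0.64). Within each library a minority of cells held most of this RNA. Cells with at least 100 MHC class II UMIs per 10000 UMIs, a limit chosen after the values were seen, numbered 12 of 53 (22.6%), 19 of 76 (25%), 18 of 78 (23.1%) and 22 of 106 (20.8%), and held 89.2%, 88.6%, 85.2% and 82.6% of the MHC class II UMIs. The median cell held 14.9, 15.8, 12.6 and 15.6 per 10000. The share of such cells was thus similar in all libraries, with intervals that overlapped. Of them 7, 7, 2 and 4 also held 2 or more B cell marker UMIs. Without those the counts were 5, 12, 16 and 18, or 9.43%, 15.8%, 20.5% and 17% of the monocytes. Between 100 and 200 per 10000 lay 6, 5, 9 and 9 cells, and between 50 and 100 lay 3, 5, 2 and 8.

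Cd209a, a C-type lectin that marks monocyte-derived dendritic cells and a set of classical monocytes, had UMIs in Ly6c+ monocytes of the WT libraries and none in those of the knockouts. It had 22, 77, 0 and 0 UMIs, or 92.0, 227, 0 and 0 CPM, in 4, 10, 0 and 0 cells. The aged to young ratio was 2.46 (1.52 to 4.16), with 25 of the 77 UMIs in 1 cell, and the direction turned, to a log2 ratio of -1.05, among the cells that scored highest as Ly6c+ monocytes. Against a floor of 3 counts, the level was at least 37.8-fold lower in the single knockout than in aged WT. After thinning to 1000 UMIs, 1.89%, 9.21%, 0% and 0% of monocytes held a UMI, and 0.0725%, 0%, 0% and 0% of naive CD4 T cells. The cells with Cd209a all held Ccr2, and 2 of 4 and 5 of 10 held Ly6c2. Their median MHC class II level was 458 and 297 per 10000 UMIs, against 14.1 and 14.8 in the WT monocytes without it. In DC/Mac cells Cd209a was found in every library, at 378, 191, 108 and 104 CPM. The 12 genes of the dendritic cell list, Cd209a itself included, summed to 347, 492, 86.0 and 143 CPM. Of its 4 measured members, 3 were lower in the single knockout than in aged WT (Cd209a, Batf3 and Tcf4), against 13.3% of all genes. In the double knockout against the single knockout, 2 of 3 measured members were higher, while Cd209a stayed at 0. Cells scoring highest as dendritic cell or macrophage numbered 1, 5, 0 and 0, and their part in the result was not tested.

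Hpgd, which breaks down prostaglandins, was also lower in the knockouts. It stood at 297, 191, 6.00 and 38.4 CPM, from 71, 65, 3 and 23 UMIs in 25, 16, 2 and 12 cells. The ratio was 0.0314 (0.0063 to 0.0958) in the single knockout against aged WT and 6.39 (1.93 to 33.3) in the double knockout against the single knockout. In Ly6c- monocytes it stood at 676, 297, 143 and 136 CPM, and in DC/Mac cells at 102, 53.2, 6.93 and 34.3 CPM, so a lower level in the single knockout was not limited to Ly6c+ monocytes. Trf, transferrin, which carries iron, stood at 331, 238, 42.0 and 75.1 CPM, a ratio of 0.176 (0.104 to 0.288). Batf3, a transcription factor of dendritic cells, stood at 50.2, 100, 20 and 36.7 CPM, with a ratio of 0.2 (0.0881 to 0.414). Irf8, which directs monocyte and dendritic cell development, stood at 431, 374, 196 and 260 CPM, a ratio of 0.524 (0.399 to 0.688). Cd177, Slamf7, Sh3bp5, Ckb and Hes1 were the other genes with the clearest lower level. Cd177 stood at 134, 180, 38.0 and 71.7 CPM and Slamf7, a receptor of the SLAM family, at 41.8, 61.8, 2.00 and 10.0 CPM, the latter from 1 UMI in the single knockout.

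One gene with a large difference was not particular to these cells. Tpm3-rs7, a processed copy of the tropomyosin gene Tpm3, stood at 12.6, 8.83, 280 and 302 CPM, and Tpm3 at 381, 453, 280 and 290 CPM. The copy showed the same difference in B cells, at 7.30, 7.09, 253 and 270 CPM, and in T cells, at 8.76, 9.42, 285 and 289 CPM. Reads of the 2 genes may not be separable, and the level of each is uncertain.

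Genes of glycolysis, which turns glucose into pyruvate and lactate, were partly higher in the knockouts. Of 13 measured in the single knockout against aged WT, 6 were higher (Ldha, Pgam1, Hif1a, Tpi1, Gapdh and Pgk1) and none was lower. The median log2 ratio was 0.55. Pgk1, phosphoglycerate kinase, stood at 197, 188, 404 and 359 CPM, with a ratio of 2.14 (1.61 to 2.89). Gapdh stood at 648, 810, 1610 and 1411 CPM, with a ratio of 1.99 (1.73 to 2.29). Both were high in both knockouts. In DC/Mac cells 5 of 13 members were higher as well, against 13.8% of all genes, with a median of 0.50. In Ly6c- monocytes 2 of 10 were higher and 2 lower (median 0.15), against 14.9% and 14.8% of all genes. In the double knockout against aged WT, 4 of 13 members were higher in Ly6c+ monocytes and none was lower (median 0.42). None of the 13 passed 1.5-fold in either direction in the double knockout against the single knockout. Ctsd, the lysosomal protease cathepsin D, stood at 134, 67.7, 260 and 260 CPM, with a ratio of 3.84 (2.45 to 6.27), and C5ar1, the receptor for complement C5a, stood at 20.9, 11.8, 78.0 and 31.7 CPM.

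NF-kB target genes, which miR-146a is known to restrain, differed little as a list. Of 15 measured members in the single knockout against aged WT, 2 were higher (Sod2 and Traf1) and none lower, with a median log2 ratio of 0.15. Sod2, mitochondrial superoxide dismutase, stood at 146, 150, 242 and 200 CPM, a ratio of 1.61 (1.15 to 2.28). Nfkbia, the inhibitor that NF-kB induces against itself, stood at 431, 403, 496 and 397 CPM, a ratio of 1.23 (0.995 to 1.53). Of 12 listed targets of miR-146a, 3 had enough UMIs to be measured, with none higher and 1 lower. Traf6 had 1, 3, 12 and 4 UMIs, too few for a statement on its level. Of 13 measured miR-155 targets, 1 was higher and 1 lower, with a median of 0.10.

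In the double knockout against the single knockout, the genes with the clearest lower level were Saa3, Lrg1, Ifitm1, Il1b, Fpr2, Stard7 and Rragc. Il1b, the cytokine interleukin 1 beta, stood at 4.18, 44.2, 56.0 and 15.0 CPM, a ratio of 0.268 (0.111 to 0.584). Fpr2, a formyl peptide receptor that serum amyloid A and bacterial peptides engage, stood at 8.37, 29.4, 76.0 and 25 CPM, a ratio of 0.329 (0.168 to 0.613). Il1b and Fpr2 were lowest in young WT, and for both the single knockout was the highest library. Il1b in the single knockout and aged WT differed by less than counting error, with a ratio of 1.27 (0.655 to 2.56). Of 8 measured genes of the interferon gamma response, 4 were higher (Ifi47, Irgm1, Igtp and Wars) and 1 was lower (Irf1), with a median of 0.45. Ifi47, an immunity-related GTPase, stood at 197, 156, 108 and 180 CPM, with a ratio of 1.67 (1.19 to 2.36). Without the cells that held 2 or more B or T cell marker UMIs, this median was -0.02, and with a minimum of 50 UMIs it was -0.03. Hpgd, Tppp3, Isg15, Pdlim2 and Rpa1 were the genes with the clearest higher level. Pdlim2, an adaptor that promotes degradation of the NF-kB subunit p65, stood at 41.8, 50, 10.0 and 41.7 CPM, and its ratio was 4.17 (1.57 to 13.9). Rpa1, a subunit of the protein that coats single-stranded DNA, stood at 12.6, 14.7, 8 and 36.7 CPM, from 4 and 22 UMIs in the 2 knockouts. The miR-155 deletion of the double knockout is confined by design to T cells. Mir155hg had 0 UMIs in the monocytes, which are too few cells to tell absence from a low level.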

How the data were processed

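The authors deposited raw UMI counts for 31053 genes per library (unit: counts), made with Cell Ranger 3.0.0 on mm10 per the submitters' processing notes, and a cell type name for each annotated barcode (deposited by the authors as text, unit: other, with 16 names). The sources used here do not give how the names were assigned or how doublets were treated, and no doublet caller was run. The annotated barcodes of these monocytes hold 1011 to 8984 UMIs.

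UMIs were summed over the Ly6c+ Mono cells of each library and given as CPM. Sums have exact Poisson intervals, ratios conditional exact binomial intervals, shares Clopper-Pearson intervals and ratios of shares Katz intervals, all at 95%. A sum of 0 was replaced by a floor of 3 counts for bounds, in a fold given as "at least". Counts of higher and lower genes and list medians use ratios with 1 count added, for genes with at least 20 UMIs over both libraries, and a gene counts from 1.5-fold. Marker scores are means of standardised log values. Shares of cells with a UMI were recomputed with each cell thinned to 1000 UMIs. The named genes are, per comparison and direction, up to 10 ranked by the interval bound nearest to 1, with a minimum of 20 UMIs and 10 cells, an interval wholly beyond 1.5-fold and at least 20% of the level of the type where the gene is highest. Antigen receptor, haemoglobin, mitochondrial, ribosomal protein and sex-linked genes were left out, as were unnamed gene models (Gm and Rik symbols). List members, markers and a few genes chosen after their values were seen (Hp, Irf8, Ctsd, C5ar1, Prtn3, Elane, Cxcl10 and Traf6 among them) were added. Some results are not reported here. The members and the 32 lists were chosen with earlier results of these data known. With 1 library per group no test was run. The scripts were tested on simulated data. Alternatives were TMM scaling (edgeR 4.0.16), other minima and pseudocounts, and other sets of cells. The computations used Python 3.11.15, NumPy 2.4.6, SciPy 1.17.1 and pandas 2.3.3. Sequences are from RefSeq.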

Additional observations from a re-analysis of the deposited data

Results flagged for a closer look

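Barcodes without a deposited name also held RNA of these monocytes. Scored on the same markers, 22 unnamed barcodes of young WT, 34 of aged WT, 85 of the single knockout and 52 of the double knockout scored highest for Ly6c+ monocytes, a signal in data that the comparisons leave out. Of these, 1, 0, 54 and 24 held UMIs of both Ccr2 and F13a1, and 0, 0, 50 and 23 of them had more than 9000 UMIs. In young WT the unnamed barcodes had a median of 1011 UMIs and a median mitochondrial share of 7.94%. In aged WT they had no F13a1 UMI, against 456 CPM in the single knockout and 244 CPM in the double knockout. Saa3, which is on the marker list that picked these barcodes, stood at 22.4, 5.60, 1653 and 40.3 CPM in them, from 3, 2, 1364 and 25 UMIs.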

How the results depend on the processing

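No paired analysis was possible because each group has 1 library. Without replicates nothing separates a difference between groups from one between pools, preparations or libraries; the groups hold 53 to 106 cells, and genes under 20 UMIs are beyond what this depth can show.

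As a share of annotated myeloid cells, Ly6c+ monocytes gave ratios of 0.274 (single knockout to aged WT) and 0.290 (double knockout to aged WT). With unnamed barcodes that score as Ly6c+ monocytes added, the share ratio was 1.79 in the single knockout and 0.717 in the double knockout against it, and with only those that hold Ccr2 and F13a1, an alternative chosen after seeing the data, it was 2.10 and 0.727. The cause was not tested.

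Counts of higher and lower genes moved with the rule. In age, single knockout, double against single knockout, and double knockout against aged WT, they were 335 and 370, 540 and 584, 465 and 392, and 567 and 561. With no minimum of UMIs they were 1629 and 2307, 1743 and 2527, 2331 and 2194, and 1803 and 2832; at 50 UMIs 80 and 84, 206 and 192, 100 and 93, and 238 and 175. At 2-fold they were 81 and 104, 171 and 191, 112 and 92, and 169 and 173, and with the interval wholly beyond 1.5-fold 10 and 9, 63 and 56, 12 and 12, and 59 and 34. With Ccr2 and F13a1 barcodes added they were 975 and 1088 in the single knockout and 869 and 865 in the double knockout against aged WT.

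Without thinning, the share of cells with a UMI of 7 mitotic genes was 18.9%, 9.21%, 33.3% and 34.9%, and with Saa3 44.9% and 16% in the knockouts. Of 1137 list medians under alternatives, 82 moved and 4 reversed, and of 408 values of named genes 6 moved and 1 reversed. Reversed were the cell cycle median of the double knockout against aged WT without mitotic cells (-0.11), the dendritic cell median with age among cells that score highest as Ly6c+ monocytes (-0.90), the NK median, which rests on Nkg7 alone, with Ccr2 and F13a1 barcodes added (-0.083 in the single knockout and 0.21 in the double against the single knockout), and Cd209a with age among the highest-scoring cells (-1.05). The mitotic cells were picked by 7 members of the cell cycle list, so a lower median without them follows from how they were picked. The cause of the other reversals was not tested. The Saa3 log2 ratio of the double to the single knockout was -1.83, and -1.57 to -2.40 where it moved.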

Other observations

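A few further values were not part of a comparison above. C1qb, a subunit of complement C1q that macrophages make, stood at 0, 2.94, 80.0 and 31.7 CPM, with 40 UMIs in 8 cells of the single knockout and 19 UMIs in 6 cells of the double knockout. Ccl5, a chemokine of T and NK cells, stood at 87.9, 112, 148 and 33.4 CPM, and 1 cell held 40 of its 74 UMIs in the single knockout. Cxcl9, a chemokine that interferon gamma induces, had 19 UMIs in 2 cells of young WT, of which 1 cell held 17, and 1 to 3 UMIs in the other libraries.

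Some genes differed little over the 4 libraries. Spi1, the transcription factor PU.1, stood at 833, 830, 890 and 759 CPM. Csf1r, the receptor for the growth factor of monocytes, stood at 443, 530, 498 and 444 CPM. Cybb, the catalytic subunit of the NADPH oxidase, stood at 1021, 998, 1010 and 951 CPM. Unlike these, Cx3cr1, the fractalkine receptor that is high in patrolling monocytes, was lower in the double knockout than in aged WT. It stood at 259, 256, 194 and 158 CPM.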
